A study of Homo sapiens with 6 samples.

Results

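The actin cytoskeleton and its myosin motors were described through 54 genes, of the 40173 genes in the deposited table of HCT116 RNA-seq counts. The genes were chosen by symbol and cover actins, the proteins that bind, sever, nucleate, cap and crosslink actin, tropomyosins, nonmuscle myosin II, its phosphatase, unconventional myosins, and proteins that tie filaments to the membrane and to focal adhesions. The 54 genes hold 600 of the 151453 transcripts with a gene, and all 54 passed the filter on low counts, as did 345 of their transcripts.

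HCT116 is an established human colorectal cancer cell line, and the libraries were made from total RNA of cells grown in medium with serum. Cells of the MOCK group carried a control lentivirus, and cells of the CYGB group carried a lentivirus with the coding region of CYGB fused to FLAG. Both groups had gone through puromycin selection, and each group had 3 libraries. CYGB encodes cytoglobin, a globin whose effect on these cells was the question of the study. The stable lines are selected populations of 1 cell line with constitutive expression, and nothing says that the 3 libraries of a group came from separate transductions, so p-values measure only the spread between these libraries, which may be technical.

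Actin filaments assemble from monomers that are held in reserve or made ready by thymosins and profilins. The Arp2/3 complex starts branched filaments, formins and Ena/VASP proteins lengthen straight ones, capping protein closes the growing ends, and cofilins take filaments apart. Myosins walk along or pull on filaments with energy from ATP. In an epithelial cell these proteins shape the cortex, microvilli, junctions and the protrusions used in movement.

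The MOCK libraries held 58138393 to 65252059 counts and the CYGB libraries 61601071 to 66035266, and assembled transcripts without a gene, which held 18.6 to 19.5% of them, were not tested. CYGB itself, which checks the labels, gave 10, 28 and 34 counts in MOCK against 34935, 27681 and 32333 in CYGB, a log2 fold change of 10.35 (standard error, SE, 0.45, adjusted p = 0.00226, edgeR). Of 9 colon epithelial markers in the table, EPCAM, CDH1, KRT8, KRT18, KRT19, CDX2 and CLDN3 had at least 471 counts in every library, while CLDN4 had at most 87 and LGALS4 at most 14. The epithelial list summed to between 4235 and 4651 CPM (counts scaled to the normalized library size) in MOCK and between 4283 and 4541 CPM in CYGB. Smooth muscle markers summed to at most 23.6 CPM, leukocyte markers to at most 19.2 CPM and endothelial markers to at most 2.36 CPM in any library. Fibroblast markers reached 56.7 CPM in a CYGB library, of which COL1A1 made up most, and DCN and LUM had at most 4 counts in any library.

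Each comparison of CYGB with MOCK was made on counts summed over the transcripts of a gene and again on the transcripts. P-values come from the quasi-likelihood test of edgeR, adjusted by the Benjamini-Hochberg method over all 19987 genes or all 66609 transcripts tested, and the p and ratio threshold, that of the study's methods, is an unadjusted p of at most 0.01 with a ratio of at least 2 or at most 0.5. At the level of the gene, 0 of the 54 members passed the p and ratio threshold, which 0.565% of all genes passed, and 0 had an adjusted p under 0.05, which 0.055% of all genes had, by edgeR's quasi-likelihood test. An unadjusted p under 0.05 was reached by 2 members, MYO10 and TLN1, and by 4.54% of all genes. DESeq2 called 1 member, MYO10, by either rule, where it called 1.32% of all genes by the p and ratio threshold and 0.543% by adjusted p. The median log2 fold change of the members was 0.02, beside -0.01 for all genes tested, with 33 members above 0 and 21 below. The change was within 0.25 on the log2 scale for 42 members (77.8%), against 60.5% of all genes tested. In 8 members (14.8%) the CPM of the groups did not overlap, against 11% of all genes, which is near that background. These were MYO10, ENAH and RDX, which were lower in CYGB-overexpressing cells, and FSCN1, CAPZB, CAPZA1, TLN1 and ARPC4, which were higher. When counts were taken per transcript length, the groups did overlap in ENAH, FSCN1 and TLN1. Per length they did not overlap in TMSB10, which was lower in CYGB-overexpressing cells, or in TMSB4X, MYH9 and ZYX, which were higher. The share of all genes without overlap per length was not counted.

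**Figure D1:**
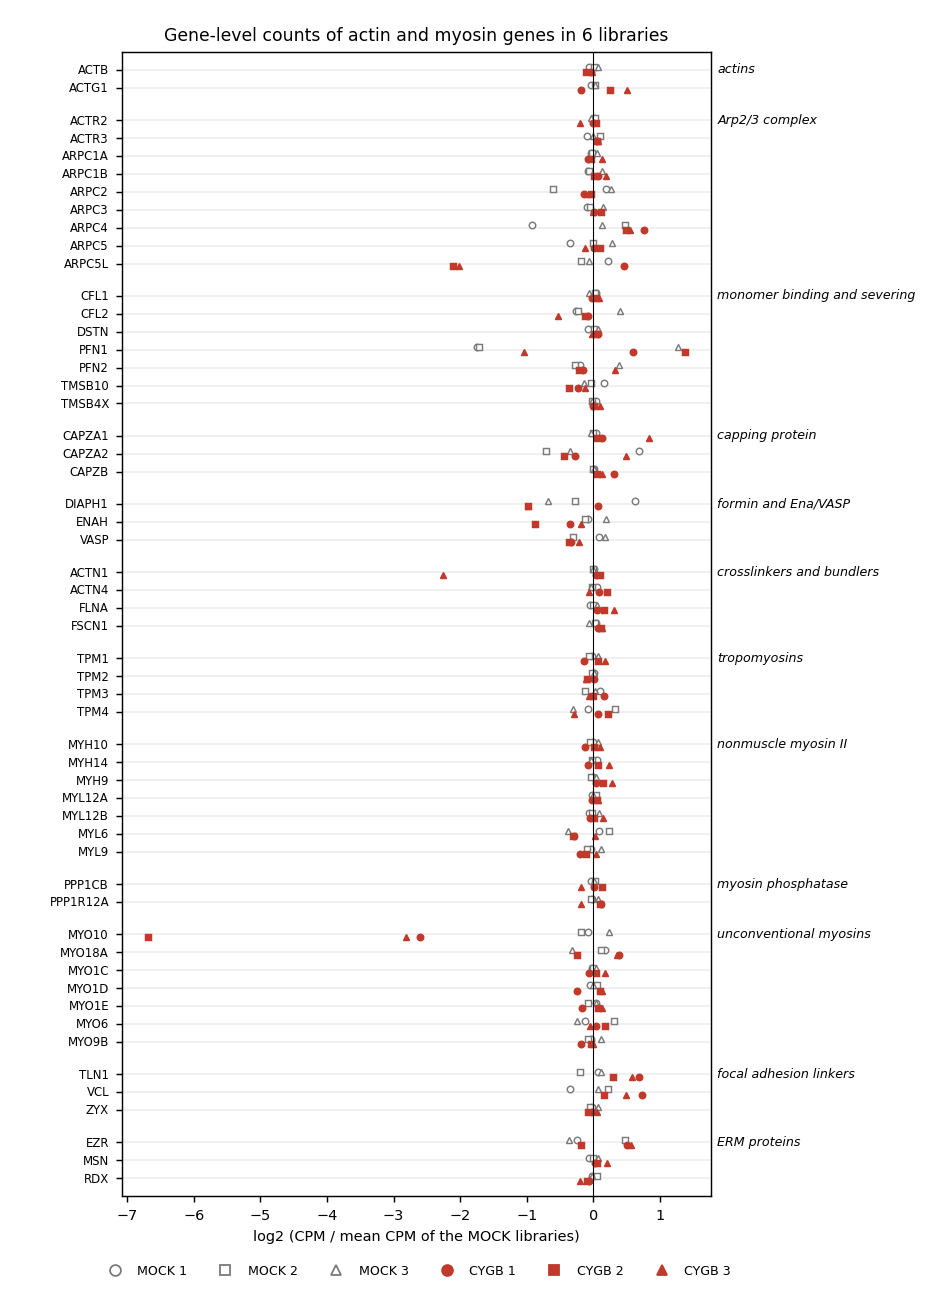
Log2 ratio of each library's CPM to the mean CPM of the MOCK libraries (x axis, log2 units) for the 54 genes, ordered by role. Open grey symbols are the 3 MOCK libraries and filled red symbols the 3 CYGB libraries. Most genes sit near 0 in all 6 libraries, MYO10 lies far to the left in all 3 CYGB libraries, and PFN1, ACTN1 and ARPC5L scatter within a group.

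The unconventional myosins held the widest difference. MYO10 (ENSG00000145555, chromosome 5 of GRCh38 from 16661914 to 16936276, minus strand) encodes myosin X, a motor that carries cargo to the tips of filopodia. Its gene-level values were 93.9, 87.0 and 116 CPM in MOCK against 16.3, 0.964 and 14.1 in CYGB-overexpressing cells. All CYGB libraries were below all MOCK libraries, and the CYGB libraries themselves differed 16.9-fold. The means were 98.9 ± 15.1 CPM in MOCK and 10.5 ± 8.29 CPM in CYGB (SD, n = 3 each). The log2 fold change was -3.24 (SE 0.93), with an unadjusted p of 0.0125 and an adjusted p of 0.963 from edgeR's quasi-likelihood test. DESeq2 gave an adjusted p of 0.018, and edgeR gave 0.0342 when CYGB replicate 2, the lowest library, was left out, while the other alternatives of the edgeR test gave values between 0.784 and 1.00. The call at the level of the gene thus depended on the tool and on CYGB replicate 2.

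At the level of the transcript, MYO10 was the member with an adjusted p under 0.05, which 0.015% of all transcripts had. Its transcript ENST00000513610 (MYO10-210, protein coding, 41 exons, from 16665286 to 16936263) had 3799, 4122 and 4768 counts in MOCK against 0, 0 and 0 in CYGB. It held 85.6, 89.7 and 80.0% of the gene's counts in the MOCK libraries. It fell to 0 in every CYGB library, which is at least 1416-fold lower than the MOCK mean of 84.2 CPM, taking 3 counts per library as the floor (adjusted p = 0.0375, edgeR's quasi-likelihood test). That adjusted p was between 0.0637 and 0.241 when any 1 of the 6 libraries was left out. It was 0.0699 without the expression filter and 0.0708 with the assembled transcripts included. With the replicate block 0 member transcripts had an adjusted p under 0.05, and the highest adjusted p of ENST00000513610 among the edgeR alternatives was 0.995. With DESeq2's size factors, and with a mean of at least 50 counts, 1 member transcript still had an adjusted p under 0.05. The call thus rests on all 6 libraries and did not hold in every setting. DESeq2 gave 1.1e-28.

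The other MYO10 transcripts had fewer counts in MOCK. The longest one, ENST00000274203 (MYO10-201, protein coding, 11456 bases), had 211, 270 and 914 counts in MOCK against 675, 0 and 537 in CYGB. These values overlapped, and this transcript held 81.9 and 72.6% of the gene's counts in CYGB replicates 1 and 3. ENST00000513882 had 151, 124 and 202 counts against 75, 19 and 14, with no overlap (unadjusted p = 0.0302, adjusted p = 1.00, edgeR). ENST00000507288 had 9, 66 and 44 counts against 66, 20 and 178. ENST00000505695 had 259, 2 and 4 counts against 0, 0 and 0, so 1 MOCK library holds nearly all of it, and it did not pass the filter. Without ENST00000513610 the gene had 638, 473 and 1194 counts in MOCK against 824, 49 and 740 in CYGB, and the groups overlapped.

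**Figure D2:**
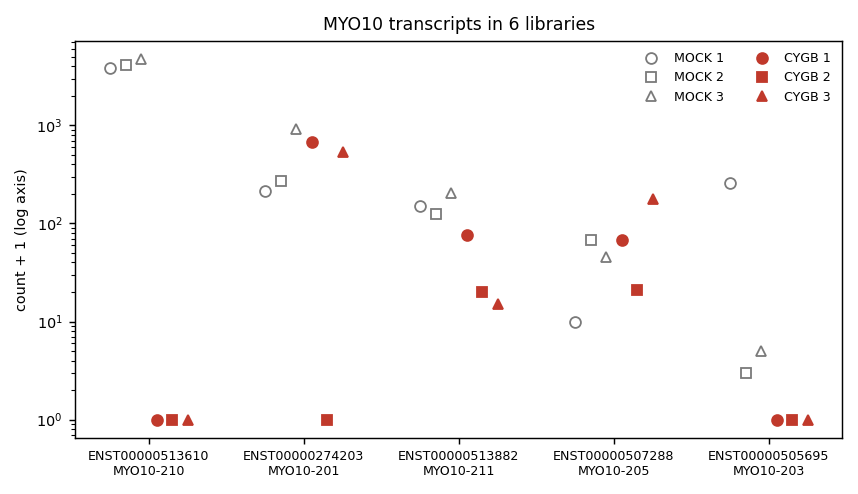
Counts plus 1 (y axis, log scale) of the 5 MYO10 transcripts that hold on average at least 1% of the gene's counts (x axis), with 1 symbol per library. ENST00000513610 had 3799 to 4768 counts in MOCK and 0 in CYGB, and the CYGB values of ENST00000274203 lie within its MOCK range in all but replicate 2, at 0.

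The sequences of both splice forms are shown because the count of ENST00000513610 depends on telling it from ENST00000274203. Both have 41 exons, and the coding sequences of 6174 and 6207 bases (GENCODE 29) are the same but for a stretch of 8 bases in ENST00000513610 and 41 bases in ENST00000274203, between chr5:16710985-16711150 on GRCh38, minus strand. At the ends, ENST00000274203 carries 3372 more bases 3′ and 13 more bases 5′. The splice junction is given with 30 shared bases on either side. The stretch of each form is in capitals, and its outermost letters, G at either end, are the same in both forms:
MYO10 ENST00000513610: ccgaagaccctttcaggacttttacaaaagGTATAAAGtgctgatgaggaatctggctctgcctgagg
MYO10 ENST00000274203: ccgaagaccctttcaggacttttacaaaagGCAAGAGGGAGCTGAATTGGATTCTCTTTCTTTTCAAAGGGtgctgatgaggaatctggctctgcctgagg

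Of the 7889 windows of 150 bases, the read length, in ENST00000513610, 155 are not in ENST00000274203, and 0 are found in no other MYO10 transcript. A read inside the remaining windows could be given to either form, and how the counting tool divided such reads is not stated. Among the assembled transcripts without a gene, 23 were higher in CYGB with no overlap by 50 to 150% of the CPM that ENST00000513610 lost, 3 of them at 0 counts in all MOCK libraries, and 30 were lower by an amount of the same range. Whether any of these is a form of MYO10 was not tested.

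The other 6 unconventional myosins differed little as genes. MYO1C, a short-tailed membrane motor, was the highest of the 7 per length at 140 ± 6.33 TPM (counts per length, scaled to the same sum in each library; SD, n = 3) in MOCK and 152 ± 11.2 TPM in CYGB. MYO18A was the lowest in MOCK at 23.5 ± 2.49 TPM. Their log2 fold changes lay between -0.08 for MYO9B and 0.19 for MYO18A.

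MYO1E (ENSG00000157483), a membrane-binding class I myosin, had 154, 141 and 154 CPM in MOCK against 133, 157 and 163 in CYGB. The groups overlapped at a log2 fold change of 0.01 (SE 0.10, adjusted p = 0.998, edgeR), a value whose sign changed when MOCK replicate 2, CYGB replicate 2 or CYGB replicate 3 was left out. Its transcript ENST00000560749, from 59171897 to 59208781 on chromosome 15, had 36, 83 and 119 counts in MOCK against 0, 0 and 0 in CYGB, at least 26.3-fold lower (unadjusted p = 0.0011, adjusted p = 0.314, edgeR). This transcript held 0.518% of the gene's counts on average, while ENST00000288235 held 99.2% and had 7209 to 7810 counts in MOCK and 6677 to 8552 in CYGB. MYO1D, which like MYO1E is a class I myosin, had opposite values for its 2 main transcripts. ENST00000318217 had 3682, 3145 and 2835 counts in MOCK against 4783, 5697 and 5213 in CYGB (log2 fold change 0.69), and ENST00000579584 had 1660, 3346 and 3183 against 242, 705 and 1536 (log2 fold change -1.73), with no overlap for either and neither past the p and ratio threshold. As a gene, MYO1D was at 119 ± 4.29 CPM in MOCK against 120 ± 16.4 in CYGB (SD, n = 3).

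The cytoplasmic actins are the filament's subunits. Their coding sequences are close, so the first 90 bases are printed to show how far reads of the 2 genes can be told apart, with the differing bases in capitals (GRCh38, minus strand, chr7:5529568-5529657 and chr17:81512265-81512354):
ACTB: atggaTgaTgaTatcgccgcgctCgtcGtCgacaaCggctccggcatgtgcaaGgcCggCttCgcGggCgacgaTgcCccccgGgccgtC
ACTG1: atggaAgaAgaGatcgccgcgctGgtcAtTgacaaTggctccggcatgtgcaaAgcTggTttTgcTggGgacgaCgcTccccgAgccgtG
Over the 1125 coding bases, without the stop codon, 98 differed (91.3% identity), the longest identical run was 59 bases, and 0 of 976 windows of 150 bases were shared. In these coding sequences every window of read length therefore holds at least 1 base that separates the genes.

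ACTG1 (ENSG00000184009, chromosome 17 from 81509971 to 81523847), gamma-actin, was the higher of the 2 per length at 4083 ± 159 TPM in MOCK and 4701 ± 890 TPM in CYGB (SD, n = 3). Its gene-level values were 3851, 4015 and 4023 CPM in MOCK against 3478, 4709 and 5625 in CYGB. One CYGB library was below and 2 were above the MOCK range. The log2 fold change was 0.22 (SE 0.17, adjusted p = 0.963, edgeR), and it was 0.049 without CYGB replicate 3 and 0.38 without CYGB replicate 1. ACTB (ENSG00000075624, chromosome 7 from 5527147 to 5563784), beta-actin, had 2069, 2182 and 2281 CPM in MOCK against 2115, 2019 and 2154 in CYGB. These overlapped, with a log2 fold change of -0.05 (SE 0.06, adjusted p = 0.964, edgeR) and a level of 2098 ± 104 TPM in MOCK and 2185 ± 63.9 TPM in CYGB. The ratio of ACTB to ACTG1 counts was 0.537, 0.543 and 0.567 in MOCK and 0.608, 0.429 and 0.383 in CYGB.

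Below the gene, the ACTG1 counts moved between transcripts from library to library within a group. The coding form ENST00000573283 had 65188, 130944 and 22571 counts in MOCK against 89317, 155105 and 193297 in CYGB. ENST00000331925, also coding, had 10428, 7257 and 122198 counts in MOCK against 1347, 2834 and 1735 in CYGB. It held 59.0% of the gene's counts in MOCK replicate 3 and at most 5.73% in any other library, and although the groups did not overlap (unadjusted p = 0.0137, adjusted p = 1.00, edgeR) it did not pass the p and ratio threshold.

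ENST00000575087 had 69535, 15753 and 0 counts in MOCK against 47029, 5902 and 17189 in CYGB. ENST00000571691 had 16686, 0 and 0 counts in MOCK against 7382, 0 and 0 in CYGB, and did not pass the filter. ENST00000576209, with a retained intron, had 93, 192 and 13961 counts in MOCK against 241, 637 and 548 in CYGB. In all 3 the libraries of a group differed more than the groups did, and the sign of the difference in ENST00000575087 and ENST00000576209 changed when single libraries were left out. The other forms with at least 1% of the counts were ENST00000575842, with 7103, 27446 and 24522 counts against 15435, 39762 and 42887, and ENST00000576917, with 10667, 24673 and 19302 counts against 11379, 28923 and 33292.

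The ACTG1 transcript that passed the p and ratio threshold was rare. ENST00000575659, from 81511348 to 81514640, had 46, 30 and 36 counts in MOCK against 1, 7 and 4 in CYGB, a log2 fold change of -3.20 (SE 0.70, unadjusted p = 0.00432, adjusted p = 0.621, edgeR). It held 0.00945% of the gene's counts on average.

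ACTB counts were shared out unevenly too. ENST00000462494, annotated with a retained intron, had 61256, 71699 and 62189 counts in MOCK against 56887, 52349 and 4831 in CYGB, while the coding ENST00000331789 had 30150, 37107 and 44779 against 13037, 24948 and 104701. CYGB replicate 3 thus stood apart for both, with the gene's total in range. ENST00000493945 had 420, 788 and 3616 counts in MOCK against 31173, 18128 and 994 in CYGB.

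**Figure D3:**
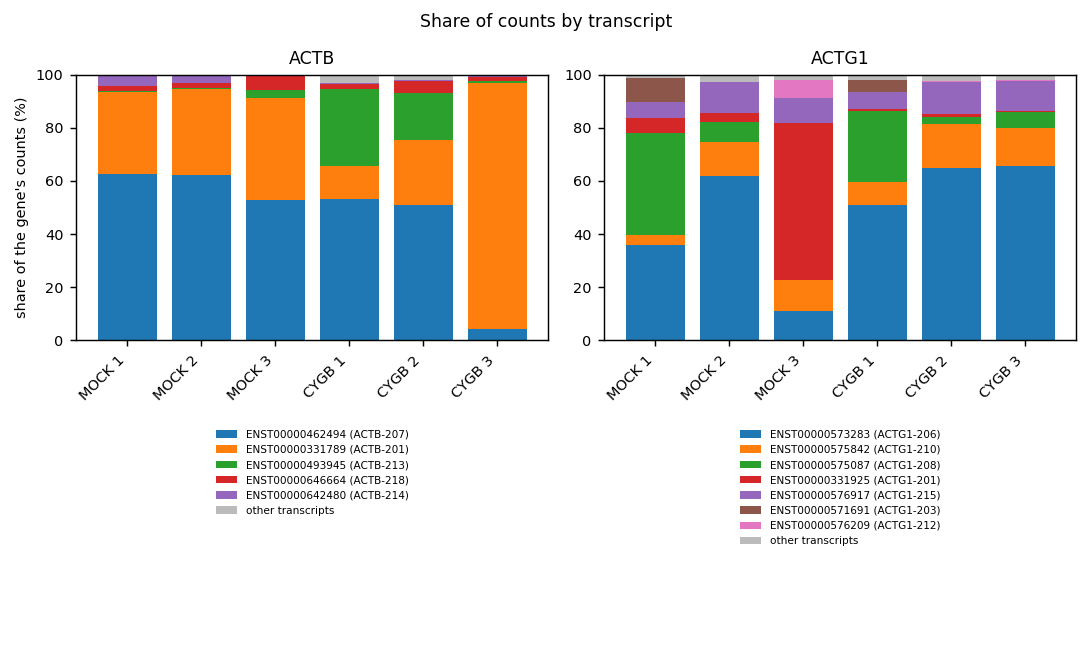
Share of the gene's counts (y axis, %) given to each ACTB and ACTG1 transcript in the 6 libraries (x axis). Colours are transcripts with an average share of at least 1%, and grey is the rest. ENST00000331925 took 59.0% of ACTG1 in MOCK replicate 3 and at most 5.73% elsewhere, and the ACTB bars of CYGB replicate 3 differ from those of the other CYGB libraries.

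Across the members with at least 2 tested transcripts, the same transcript led in all 6 libraries in 27 of 51 (52.9%), and in 60.3% of 9264 genes with at least the count of the lowest member. Of the 345 tested transcripts of the members, 4 in 4 genes (1.16%) passed the p and ratio threshold, against 1.02% of all transcripts, and all 4 were lower in CYGB-overexpressing cells, against 0.482% of all transcripts called lower. DESeq2 called 9 member transcripts by the p and ratio threshold, which 2.3% of all transcripts passed, and 4 by adjusted p, which 1.14% of all did. The groups did not overlap in 46 (13.3%), against 10.4% of all transcripts. A difference of more than 2-fold was found in 65 (18.8%), against 17.4% of all transcripts.

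**Figure D4:**
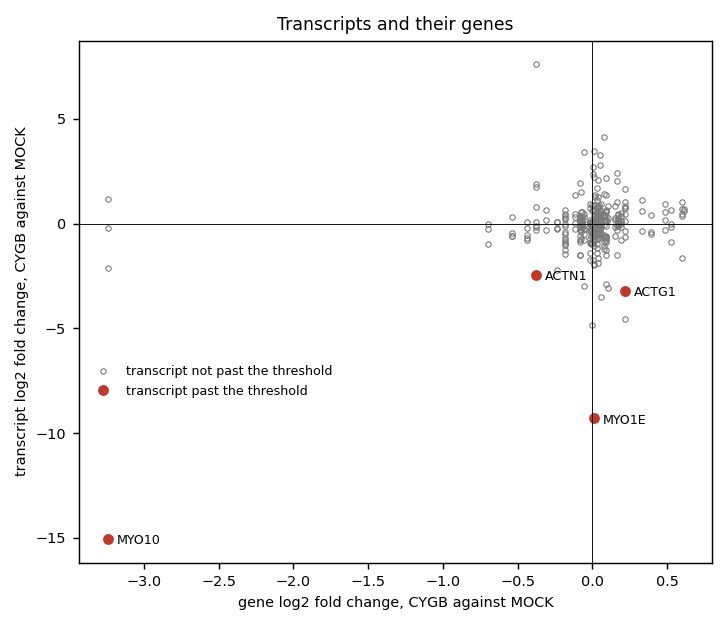
Log2 fold change of each of the 345 tested transcripts (y axis) against that of its gene (x axis). Red points passed the p and ratio threshold. The ACTG1, ACTN1 and MYO1E points lie below 0 while their genes lie between -0.38 and 0.22, and MYO10 is low on both axes.

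The monomer-binding and severing genes included the highest level per length. TMSB10, thymosin beta-10, which binds actin monomers, led all members with 6895 ± 655 TPM in MOCK and 5961 ± 318 TPM in CYGB (SD, n = 3), and CFL2 was the lowest of the group at 39.2 ± 23.4 and 26.2 ± 5.45 TPM. Of the 7 genes, 5 were above 0 and 2 below in log2 fold change, and CFL1, DSTN, PFN2 and TMSB4X lay between 0.01 and 0.03.

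PFN1 (ENSG00000108518, chromosome 17 from 4945652 to 4949061), profilin-1, which readies monomers for assembly, had the largest positive gene-level change of the members, with a spread larger than the change. Its values were 95.4, 97.3 and 770 CPM in MOCK against 486, 828 and 156 in CYGB. MOCK replicate 3 stood with the high CYGB libraries, and CYGB replicate 3 nearer to the low MOCK libraries. The log2 fold change was 0.61 (SE 0.99, adjusted p = 0.976, edgeR), and it was 2.35 without MOCK replicate 3 and below 0 (-0.0037) without CYGB replicate 2. The transcript ENST00000225655 carried the high values, with 1341, 1031 and 38694 counts in MOCK against 12915, 41302 and 7306 in CYGB, and ENST00000574872 had 3159, 4107 and 963 against 11624, 799 and 908.

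The Arp2/3 complex was measured through 9 genes. In MOCK they ranged from 4.03 ± 0.985 TPM for ARPC5 to 362 ± 18.2 TPM for ARPC1A. In CYGB they ranged from 4.56 ± 0.541 to 372 ± 20.6 TPM for the same genes (SD, n = 3). The actin-related core subunits ACTR2 and ACTR3 had log2 fold changes of -0.05 and 0.06. The median of the complex was 0.01, with 5 genes above 0 and 4 below, and its sign changed without MOCK replicate 1 (-0.0060).

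ARPC4 and ARPC5L lay at the edges of the complex. ARPC4 (ENSG00000241553, chromosome 3 from 9792495 to 9807726) had 50.8, 134 and 106 CPM in MOCK against 165, 135 and 141 in CYGB. The groups did not overlap, but the highest MOCK and the lowest CYGB library were nearly level (log2 fold change 0.60, SE 0.34, adjusted p = 0.963, edgeR), and without MOCK replicate 1 the log2 fold change was 0.29. ARPC5L (ENSG00000136950, chromosome 9 from 124862130 to 124877733), a paralog of ARPC5, had 50.4, 38.1 and 41.4 CPM in MOCK against 59.6, 10.0 and 10.7 in CYGB. CYGB replicate 1 was above all MOCK libraries and the other CYGB libraries were far below them, for a log2 fold change of -0.69 (SE 0.72, adjusted p = 0.963, edgeR), or -2.07 without CYGB replicate 1. In that fit ARPC5L passed the p and ratio threshold (unadjusted p = 7.99e-05, adjusted p = 0.111, edgeR). Its coding transcript ENST00000259477 had 2056, 1412 and 1468 counts against 2073, 228 and 221.

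The 3 formin and Ena/VASP genes among the members, which lengthen unbranched filaments, had log2 fold changes below 0, with 0 past either threshold and a median of -0.44, or -0.26 without MOCK replicate 1. Of 9 other formin and Ena/VASP genes tested, 6 were above 0 and 3 below, with a median of 0.10. ENAH (ENSG00000154380, chromosome 1 from 225486835 to 225653142), the Mena protein, had 123, 119 and 148 CPM in MOCK against 102, 70.5 and 115 in CYGB. The groups did not overlap, with a log2 fold change of -0.44 (SE 0.20, unadjusted p = 0.0659, adjusted p = 0.963, edgeR), and the value was -0.26 without CYGB replicate 2. The lowest value, in CYGB replicate 2, came with 581 counts of the retained-intron transcript ENST00000358675, which had 2028 to 3951 in the other libraries, while the coding ENST00000366844 had 3237, 3434 and 3408 counts against 2992, 2884 and 2968.

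VASP had 124, 94.1 and 131 CPM in MOCK against 91.9, 89.8 and 99.8 in CYGB, which overlap, and a log2 fold change of -0.31. DIAPH1 (ENSG00000131504, chromosome 5 from 141515016 to 141619055), a formin, was low, at 15.7, 8.38 and 6.31 CPM in MOCK against 10.6, 5.14 and 5.12 in CYGB. The groups overlapped (log2 fold change -0.54, SE 0.45, adjusted p = 0.963, edgeR), and the log2 fold change was -0.08 without MOCK replicate 1. Per length, VASP was the highest of the 3 at 103 ± 13.7 TPM in MOCK and 85.2 ± 3.02 TPM in CYGB, and DIAPH1 the lowest at 11.3 ± 2.05 and 8.63 ± 2.89 TPM (SD, n = 3).

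Of the 3 capping protein genes among the members, the groups did not overlap in CAPZB and CAPZA1. CAPZB (ENSG00000077549, chromosome 1 from 19338776 to 19485539), the beta subunit, had 173, 172 and 173 CPM in MOCK against 214, 179 and 188 in CYGB (log2 fold change 0.17, SE 0.09, adjusted p = 0.963, edgeR). The SD of the MOCK libraries was 0.827 CPM, so a small difference separated the groups, and without CYGB replicate 1 the log2 fold change was 0.090. CAPZA1 (ENSG00000116489, chromosome 1 from 112619173 to 112671619), an alpha subunit, had 168, 162 and 159 CPM in MOCK against 179, 170 and 292 in CYGB (log2 fold change 0.39, SE 0.22, adjusted p = 0.963, edgeR). CYGB replicate 3 carried most of this, and without it the value was 0.10. Per length, CAPZB was the highest of the 3 at 185 ± 4.03 TPM in MOCK and 227 ± 32.2 TPM in CYGB. CAPZA2, another alpha subunit, was the lowest at 42.4 ± 18.9 and 40.2 ± 11.0 TPM.

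Among the crosslinkers, ACTN1 (ENSG00000072110, chromosome 14 from 68874143 to 68979440), alpha-actinin-1, had 260, 258 and 259 CPM in MOCK against 266, 276 and 54.1 in CYGB. CYGB replicates 1 and 2 were just above MOCK, and CYGB replicate 3 was far below (log2 fold change -0.38, SE 0.56, adjusted p = 0.973, edgeR, and 0.07 without that library). The coding transcript ENST00000193403, with the same start and end as the gene, was lower in all 3 CYGB libraries, at 7381, 12723 and 11067 counts in MOCK against 1709, 2068 and 1983 in CYGB. Its log2 fold change of -2.43 (SE 0.21, unadjusted p = 3.9e-05) passed the p and ratio threshold, with an adjusted p of 0.0984 from edgeR's quasi-likelihood test and 5.7e-14 from DESeq2.

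The remaining ACTN1 counts went to different transcripts in different libraries. Without ENST00000193403 the gene had 4894, 930 and 2241 counts in MOCK against 11746, 11977 and 860 in CYGB. ENST00000394419 held 9887 counts in CYGB replicate 1 and at most 53 in any other library, and ENST00000438964 held 7782 in CYGB replicate 2, 2186 in MOCK replicate 1 and at most 178 elsewhere. CYGB replicate 3 had 22 and 0 counts of these forms. Of the 3630 windows of 150 bases in ENST00000193403, 353 (9.72%) were in no other transcript of the gene.

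FSCN1 (ENSG00000075618, chromosome 7 from 5592823 to 5606655), fascin, which bundles filaments in filopodia, had 824, 815 and 769 CPM in MOCK against 838, 870 and 881 in CYGB. The groups did not overlap, at a log2 fold change of 0.10 (SE 0.06, adjusted p = 0.963, edgeR). FSCN1 was the highest crosslinker per length at 574 ± 30.3 TPM in MOCK and 614 ± 18.8 TPM in CYGB, and ACTN1 the lowest at 146 ± 9.46 and 127 ± 80.2 TPM (SD, n = 3). FLNA, filamin A, and ACTN4 had log2 fold changes of 0.17 and 0.08, below either threshold.

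The 4 tropomyosins, which lie along the filament, had log2 fold changes between -0.07 for TPM2 and 0.04 for TPM1. TPM2 was the highest per length at 500 ± 37.6 TPM in MOCK and 491 ± 27.0 TPM in CYGB, and TPM1 the lowest at 58.1 ± 1.77 and 58.4 ± 3.91 TPM (SD, n = 3).

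Nonmuscle myosin II pulls filaments together through its heavy chains, MYH9, MYH10 and MYH14, and its light chains. The 7 genes had log2 fold changes between -0.18 for MYL6 and 0.15 for MYH9, and 0 passed either threshold. MYH9 was 1218, 1199 and 1264 CPM in MOCK against 1262, 1349 and 1485 in CYGB, which overlap, though its levels per length did not. MYL12B, a regulatory light chain, was the highest of them per length at 770 ± 48.8 TPM in MOCK and 805 ± 41.0 TPM in CYGB, and MYH10 the lowest at 55.1 ± 2.75 and 56.2 ± 3.81 TPM. The myosin phosphatase genes, the catalytic PPP1CB and the targeting subunit PPP1R12A, which act on the light chain, had log2 fold changes of -0.01 and 0.01, with PPP1CB the higher per length at 152 ± 8.25 TPM and PPP1R12A at 41.9 ± 1.78 TPM in MOCK.

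Ratios between paralogs within a library do not depend on the scaling of libraries, and 12 were compared by exact two-sided permutation tests over the 6 libraries, whose smallest possible p with 3 against 3 is 0.1. The ratio of MYH9 to MYH10 counts was 5.98, 6.07 and 5.89 in MOCK and 6.68, 6.56 and 6.76 in CYGB. The ratio of TMSB4X to TMSB10 was 0.166, 0.184 and 0.199 in MOCK and 0.212, 0.236 and 0.212 in CYGB. Both were higher in every CYGB library than in any MOCK library (exact permutation p = 0.1, adjusted p = 0.6 over the 12 ratios), and the other 10 ratios overlapped. The design cannot reach 0.05 for any of them.

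Of the ERM proteins, which tie filaments to the plasma membrane, RDX (ENSG00000137710, chromosome 11 from 109864295 to 110296722), radixin, had 214, 226 and 215 CPM in MOCK against 208, 205 and 191 in CYGB. The groups did not overlap, with a log2 fold change of -0.12 (SE 0.07, adjusted p = 0.963, edgeR). EZR, ezrin, the epithelial member, was the highest per length at 1157 ± 397 TPM in MOCK and 1481 ± 368 TPM in CYGB, and RDX the lowest at 118 ± 6.51 and 99.7 ± 9.56 TPM (SD, n = 3). The counts of EZR were divided unevenly among its transcripts. ENST00000367075 had 34727, 124357 and 27450 counts in MOCK against 124640, 22858 and 132179 in CYGB, and ENST00000337147 had 38315, 8785 and 45675 against 6236, 58836 and 8805. MOCK replicate 2 and CYGB replicates 1 and 3 were high in the first form and low in the second, so the split did not follow the groups.

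Focal adhesion linkers couple filaments to integrins. TLN1 (ENSG00000137076, chromosome 9 from 35696948 to 35732395), talin-1, which binds integrin tails, had 23.8, 19.6 and 24.6 CPM in MOCK against 36.3, 27.8 and 33.9 in CYGB. The groups did not overlap, with a log2 fold change of 0.53 (SE 0.16, unadjusted p = 0.0143, adjusted p = 0.963, edgeR), and the value stayed between 0.43 and 0.63 as each library was left out. Its main transcript ENST00000314888 had 966, 898 and 1105 counts in MOCK against 1698, 1268 and 1662 in CYGB.

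VCL (ENSG00000035403, chromosome 10 from 73995193 to 74121363), vinculin, which binds talin, had 18.3, 27.3 and 24.4 CPM in MOCK against 38.8, 26.1 and 32.9 in CYGB. These overlapped by CYGB replicate 2 (log2 fold change 0.48, SE 0.21, unadjusted p = 0.0632, adjusted p = 0.963, edgeR). ZYX, zyxin, had a log2 fold change of -0.02 and was the highest of the 3 per length at 137 ± 5.22 TPM in MOCK and 149 ± 1.46 TPM in CYGB, with VCL the lowest at 9.55 ± 2.44 and 11.8 ± 1.31 TPM (SD, n = 3).

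**Figure D5:**
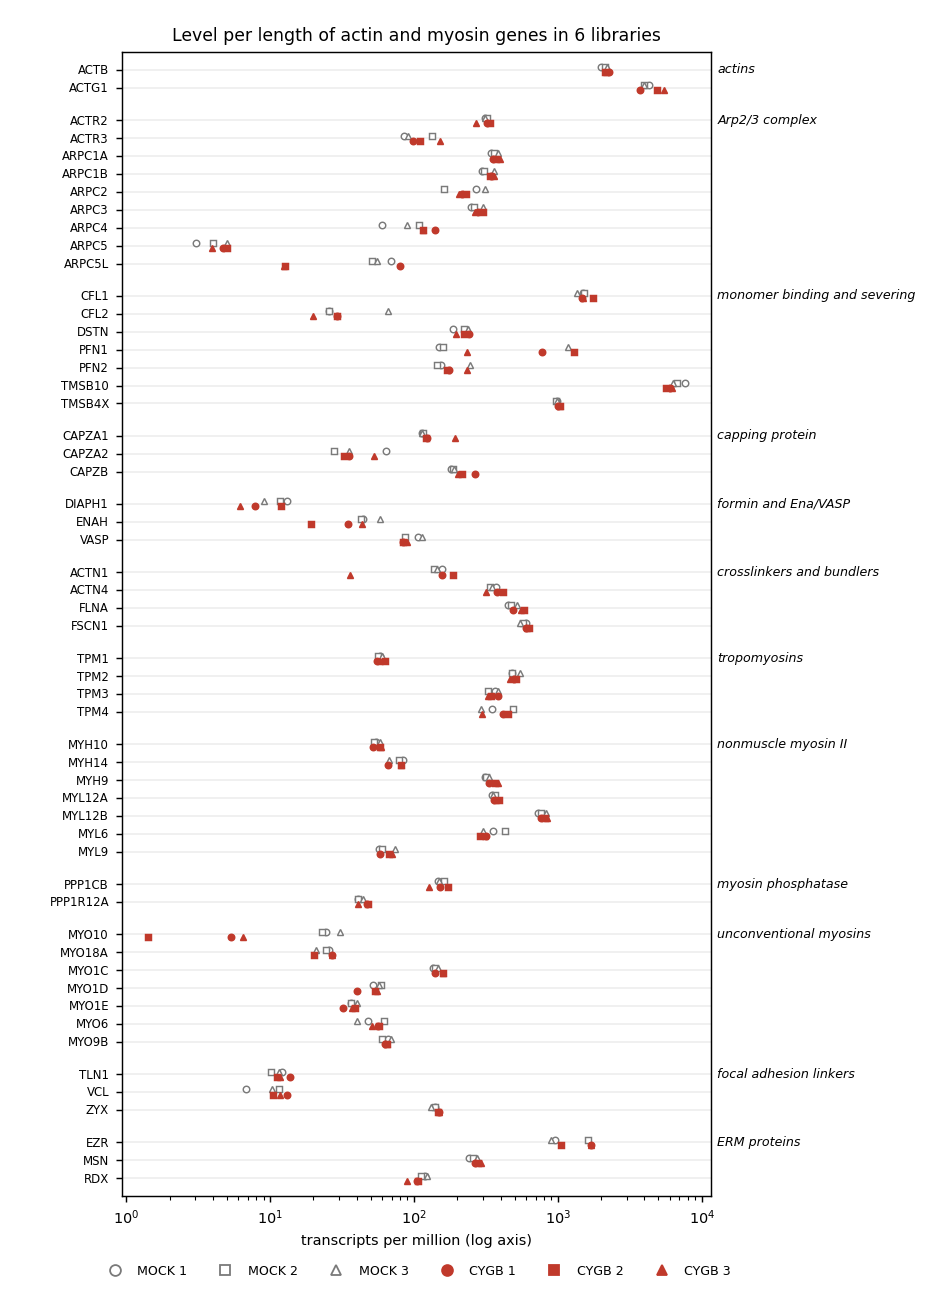
Level per length (x axis, TPM, log scale) of the 54 genes in 6 libraries, ordered by role, with open grey symbols for MOCK and filled red symbols for CYGB. Levels run from 4.03 TPM for ARPC5 to 6895 TPM for TMSB10 as MOCK means. MYO10 is the gene whose CYGB symbols lie farthest to the left of its MOCK symbols.

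Within a group, 7 members varied by more than 2-fold, namely MYO10, ARPC5L, DIAPH1, ACTN1, CAPZA2, ARPC4 and PFN1. The remaining 47 members stayed under 2-fold in both groups. Counted against the median over the 6 libraries, each library held between 1 and 4 members more than 2-fold away. MYO10 was among them in every library because its median falls in the gap between the groups. No library stood apart for the members as a whole. In RNA from a cell population, fewer cells with a transcript and less of it per cell cannot be told apart.

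Many actin genes are known targets of SRF, a transcription factor that binds the CArG box and is switched on by MRTF proteins when monomers are used up. The CArG box, on either strand, was looked for in RefSeq promoter windows from 250 bases before to 50 after the gene start (GRCh38.p14). Of the 54 members 49 matched a promoter, with 75 windows. ACTB, ARPC1B, FSCN1, MYL9 and PFN2 had no window and were not searched. In the members 5 windows (6.67%) held a match, in 5 genes (10.2%). Over all promoters 454 of 35116 windows (1.29%) and 1.60% of genes did. The transcripts of ACTN1, MYO1E and ACTG1 that passed the p and ratio threshold start outside the windows with a match. The matches are printed in capitals, to show which members hold one:
ACTN1 (chr14:68977718-68977747, minus): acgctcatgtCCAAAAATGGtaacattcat
MYO1E (chr15:59372883-59372912, minus): gctgagttctCCATTTATGGacagattgcc
ACTG1 (chr17:81512874-81512903, minus): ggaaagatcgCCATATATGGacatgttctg
TPM4 (chr19:16067355-16067384, plus): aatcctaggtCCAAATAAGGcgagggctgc
FLNA (chrX:154374709-154374738, minus): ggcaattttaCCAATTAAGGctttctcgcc
A match is a description of these letters and no evidence of binding. The 5 genes had log2 fold changes of -0.38, 0.01, 0.22, 0.01 and 0.17, in that order, and as genes 0 of them passed a threshold. SRF itself had 3100, 3544 and 1045 counts in MOCK against 1083, 3173 and 2076 in CYGB, and both of its MRTF partners, listed as MKL1 and MKL2, were tested and not called.

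The rest of the pathway was read from 5 hand-written lists of 105 genes, of which 100 were in the table and 84 tested. The p and ratio threshold was passed by 2 of the 84, both higher, where 0.565% of all genes passed it and 0.28% were called higher. The lists were written with earlier results of these data known, so a comparison with the share of all genes is no test. An adjusted p under 0.05 was reached by 0 with edgeR's quasi-likelihood test and 2 with DESeq2, which called 0.543% of all genes. An unadjusted p under 0.05 was reached by 5 (5.95%), near the 4.54% of all genes. MYO5B, a vesicle motor of the apical recycling endosome, rose from 1302, 1441 and 1210 counts in MOCK to 3428, 4130 and 2483 counts in CYGB, without overlap (log2 fold change 1.33, SE 0.21, unadjusted p = 0.000731, adjusted p = 0.487, edgeR). WASHC1, a subunit of the WASH complex that activates Arp2/3 on endosomes, rose from 34, 44 and 79 counts to 102, 257 and 243 counts (log2 fold change 1.92, SE 0.46, unadjusted p = 0.00585, adjusted p = 0.963, edgeR), though the gene has near-identical copies that could share its reads.

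In the 17 tested genes of the WASP, WAVE and cortactin list, WIPF2 was the lowest at -0.89. In the 39 other genes of actin assembly and turnover, FMNL3 had 22, 66 and 56 counts in MOCK against 167, 70 and 438 in CYGB (2.21, or 1.32 without CYGB replicate 3), and the lowest value, -3.56 for DIAPH3, came from 1879 counts in MOCK replicate 2 against 37 to 68 in the other 5 libraries, and was 0.46 without it. Among 17 tested other myosins and light chains, MYO5A had the highest value, 1.36, from 2406 counts in CYGB replicate 2 against 294 to 409 elsewhere, and PPP1R12B the lowest, -1.58. The SRF and MRTF list ran from -0.51 for MKL2 to 0.22 for MKL1. Of 16 muscle actins and myosins in the table, 10 had fewer than 10 counts in every library. ACTA2, smooth muscle actin, had 38, 51 and 33 counts in MOCK against 21, 16 and 32 in CYGB, the lowest of that list at -0.84, and ACTA1 was the highest at 0.36.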

How the data were processed

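The authors deposited raw counts per transcript for 3 MOCK and 3 CYGB libraries, from paired-end reads of 150 bases. The submitters' processing notes name HISAT2, HISAT, DESeq2 and hg19, without versions, and how reads were divided among isoforms is not given in the sources used here. Of 172678 transcripts, 21225 have no gene and were left out. Of the rest, 151393 are in GENCODE 29, 99.5% at the same position, so coordinates are those of GRCh38.

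Counts were summed per gene for gene-level results. The edgeR 4.0.16 functions filterByExpr (minimum count 10), TMM scaling, glmQLFit and glmQLFTest were used (limma 3.58.1, R 4.3.3), with Benjamini-Hochberg adjustment. The common coefficient of biological variation (BCV) of genes was 36.6% and that of transcripts 78.9%. TPM used GENCODE 29 transcript lengths. Ratios were tested with SciPy 1.17.1, sequences were compared with Biopython 1.88 and figures drawn with matplotlib 3.10.9. DESeq2 1.42.0, its size factors, no filter, a mean of at least 50 counts, a replicate block, the assembled transcripts included, and leaving out each library were alternatives.

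The fits were tested on simulated data in which 200 features differed 8-fold. These were drawn from features with an expected mean of at least 50 counts, and the transcripts only from genes with at least 2 tested transcripts. Recovery of features with fewer counts was not tested. Among changed genes (19339 features), 98.5% passed the p and ratio threshold and 93% reached an adjusted p under 0.05, and so did 145 and 19 unchanged ones. Of the changed transcripts (60415 features), 70% and 0% did, with 556 and 0 unchanged transcripts. A test of transcript usage (diffSpliceDGE) recovered 3.5% of the changed transcripts and called 102 unchanged genes, so its results are not reported.

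Full statistics are given for members called at either threshold or with a called transcript, ACTB, ACTG1, MYO10, the 10 largest gene-level changes and members without overlap. Transcripts of ACTG1 and MYO10 with at least 1% of the gene's counts are described, and other transcripts were chosen after their values were seen. For the further lists, called genes and otherwise the largest rise and fall are named. A further list is not reported here. The members and lists were chosen with earlier results of these data known. Replicate numbers did not pair the libraries (correlation of same-numbered deviations 0.016, 0.0049 and 0.025).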

Additional observations from a re-analysis of the deposited data

How the results depend on the processing

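Counts of calls moved with the settings. Members called as genes by the p and ratio threshold were 0 as reported, 1 with DESeq2, 1 with no filter and 0 to 1 with a library left out (ARPC5L without CYGB replicate 1, and MYO10 in the other cases), and by adjusted p they were 0, 1 with DESeq2 and 0 to 1 (MYO10, without CYGB replicate 2). Member transcripts past the p and ratio threshold were 4 as reported, 9 with DESeq2, 2 under the stricter filter at a mean of 50 counts, and 5 to 10 with a library left out (10 without MOCK replicate 3 or CYGB replicate 1, 7 without MOCK replicate 2 or CYGB replicate 3). By adjusted p there was 1 as reported, 4 with DESeq2, 0 with no filter, 0 with the assembled transcripts included and 0 with any library left out. It stayed at 1 with DESeq2's size factors and under the stricter filter. The further lists held 2 calls by the p and ratio threshold and 1 to 3 with a library left out (1 without MOCK replicate 2), and by adjusted p 0, or 2 with DESeq2. Members without overlap were 8, and 10 to 19 with a library left out, where fewer samples make overlap rarer (15 and 16 without MOCK replicates 2 and 3, 19 and 14 without CYGB replicates 1 and 3). Shares over all genes or transcripts were not counted with a library left out, so those counts show nothing particular to the members. The members' median log2 fold change of 0.02 ranged from 0.0027 without MOCK replicate 1 to 0.058 without CYGB replicate 1. The cause of the other moves was not tested.

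The replicate numbers do not pair the libraries. With the replicate block, member transcripts past the p and ratio threshold were 2 and by adjusted p 0, CYGB had a log2 fold change of 10.40 with an adjusted p of 0.17, and the ACTG1 transcripts ENST00000575087 and ENST00000576209 reversed to 0.62 and 0.081. Leaving out a library took CYGB from 10.01 to 10.68.

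Signs reversed with a library left out, within these ranges of log2 values. The genes were ACTN1 (-0.70 to 0.070), MYO1E (-0.044 to 0.096), PFN1 (-0.0037 to 2.35) and DIAPH3 (-4.12 to 0.46). The transcripts were ACTG1 ENST00000575087 (-1.37 to 1.63) and ENST00000576209 (-3.90 to 1.76) and MYO10 ENST00000274203 (-0.83 to 0.74). The ratios were CFL1 to CFL2 (-0.0012 to 0.39), TPM3 to TPM4 (-0.22 to 0.17), MYL12A to MYL12B (-0.050 to 0.035) and CAPZA1 to CAPZA2 (-0.086 to 0.58). Of 12 medians over a role, 7 changed sign, all close to 0: unconventional myosins (-0.044 to 0.085), Arp2/3 complex (-0.0060 to 0.075), monomer binding and severing (-0.011 to 0.052), nonmuscle myosin II (-0.017 to 0.060), tropomyosins (-0.025 to 0.025), actins (-0.011 to 0.16) and myosin phosphatase (-0.060 to 0.089). Genes that kept their sign and moved by more than 1.5 times included ACTB (-0.092 to -0.020), ARPC4 (0.29 to 0.91), DIAPH1 (-0.98 to -0.082) and RDX (-0.14 to -0.078). Others were ACTG1 (0.049 to 0.38), CAPZA1 (0.10 to 0.53), ARPC5L (-2.07 to -0.31), CAPZB (0.090 to 0.22), ENAH (-0.59 to -0.26) and FMNL3 (1.32 to 2.63). Using the length of the longest transcript moved 35 of 54 TPM levels by more than 1 SD. Named ranks moved too: in MOCK, TLN1 (6.37 TPM) was then below VCL (7.24), and MYH14 (62.2) below MYH10 (65.6). The usage test is not reported under the alternatives either. The ACTG1 transcript ENST00000575659 had at most 46 counts in a library, so its values carry a large counting error.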
